A study of Rattus norvegicus with 48 samples.

Results

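The heart-restricted transcripts described here are 45 probes, of 22523 on a rat Illumina bead array, whose signal was present in every left ventricular sample and at background in most kidney samples. A probe belonged to the set if its detection p-value was below 0.05 on all 24 left ventricular arrays, if its mean log2 deposited intensity on the 6 low-salt control arrays was at least 2 higher in left ventricle than in kidney, and if it was not detected on at least 18 of the 24 kidney arrays. Detection on all 24 left ventricular arrays left 2644 probes, the difference from kidney left 111, and the kidney criterion left 45. The platform annotation names 41 of them, each for a different gene, and gives no gene for the other 4, which are called by their probe numbers.

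All animals were male Dahl salt-sensitive rats (SS/JrHsd), an inbred strain in which dietary salt raises blood pressure, so the low-salt groups carry the same susceptibility. The labels give 4 groups of 6 left ventricles and 4 of 6 kidneys. Rats ate 0.1% NaCl or 8% NaCl from 6 weeks of age, and each received a single intraperitoneal dose, 50 µg per kg, of a mouse control IgG1 or of a mouse monoclonal antibody, 15 weeks old and in diet week 7. Tissue is labelled as 16 weeks old, and these ages and weeks do not add up exactly. The antibody binds marinobufagenin, an endogenous steroid that inhibits the Na/K-ATPase, and the comparisons ask what salt and its immunoneutralization did to cardiac transcripts. There was no untreated group, so the controls carry an injected immunoglobulin too. The sample titles call the heart tissue lateral ventricle, while the design text speaks of the left ventricle, the name used here.

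Heart muscle contracts when myosin of the thick filament pulls on actin of the thin filament, under the control of troponin and calcium, between Z-discs that anchor the actin. The adult ventricle also makes muscle-type creatine kinase, myoglobin and muscle-type subunits of the respiratory chain, which supply its energy, and small heat shock proteins and ubiquitin ligases that maintain the filaments. Pressure load is known to raise natriuretic peptides and skeletal-type alpha actin in rodent ventricle and to shift myosin heavy chain from the alpha (Myh6) toward the beta form (Myh7). Several of these genes are known targets of the factors MEF2 and GATA4 and of serum response factor, which binds the CArG box.

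RefSeq promoters (GRCr8) were available for 32 of the 41 named members, and 5 are printed because the results turn on these genes: Nppb and Acta1 had higher normalized levels on 8% NaCl, and Tnni3, Mybpc3 and Myoz2 lower ones. Each line gives the 250 bases before the annotated start site on the gene's strand, with capitals marking matches, on either strand, to the TATA box letters TATAAA, the core GATAA that GATA factors bind, the element CATTCC that TEAD factors bind, the E-box CAGCTG, the MEF2 consensus or the CArG box.

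Nppb: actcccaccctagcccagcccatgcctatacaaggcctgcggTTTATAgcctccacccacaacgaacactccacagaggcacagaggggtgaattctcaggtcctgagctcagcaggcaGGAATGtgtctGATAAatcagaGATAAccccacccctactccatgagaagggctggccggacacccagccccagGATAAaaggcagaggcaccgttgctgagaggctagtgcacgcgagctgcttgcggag
Acta1: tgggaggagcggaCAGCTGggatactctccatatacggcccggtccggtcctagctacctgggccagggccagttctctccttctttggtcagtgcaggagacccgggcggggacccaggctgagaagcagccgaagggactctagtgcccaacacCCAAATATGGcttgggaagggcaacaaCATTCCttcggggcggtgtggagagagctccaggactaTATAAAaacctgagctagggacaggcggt
Tnni3: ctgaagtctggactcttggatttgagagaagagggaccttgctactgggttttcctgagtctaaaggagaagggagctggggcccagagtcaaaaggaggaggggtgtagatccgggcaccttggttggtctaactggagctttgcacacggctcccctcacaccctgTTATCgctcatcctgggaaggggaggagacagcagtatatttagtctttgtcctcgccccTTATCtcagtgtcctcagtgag
Mybpc3: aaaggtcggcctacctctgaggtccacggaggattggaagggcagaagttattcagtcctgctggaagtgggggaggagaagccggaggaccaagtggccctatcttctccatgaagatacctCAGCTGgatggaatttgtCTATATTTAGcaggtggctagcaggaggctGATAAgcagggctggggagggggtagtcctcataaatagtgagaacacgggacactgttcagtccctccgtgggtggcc
Myoz2: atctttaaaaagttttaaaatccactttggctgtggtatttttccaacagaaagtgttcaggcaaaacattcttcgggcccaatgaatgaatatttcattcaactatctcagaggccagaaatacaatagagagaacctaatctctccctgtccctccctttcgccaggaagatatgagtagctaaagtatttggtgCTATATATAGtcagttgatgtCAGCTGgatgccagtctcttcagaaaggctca

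The stretches lie at chr5:163699758-163700007 (plus strand, Nppb), chr19:68784195-68784444 (minus, Acta1), chr1:78342321-78342570 (plus, Tnni3), chr3:97550811-97551060 (plus, Mybpc3) and chr2:213852779-213853028 (minus, Myoz2). The Nppb stretch held GATAA matches that begin 120, 109 and 57 bases before the start site and a CATTCC match at 131. The Acta1 stretch held the set's only CArG match, 94 bases before the start site, with CATTCC at 67 and TATAAA at 29. Tnni3 had GATAA matches at 82 and 22 bases, Mybpc3 a MEF2 match at 109 with an E-box at 127, and Myoz2 a MEF2 match at 53 with an E-box at 32. Over the 32 member promoters a MEF2 match occurred in 25% (Cox6a2, Hspb3, Hspb7, Myadml2, Mybpc3, Myoz2, Trim72 and Usp13), against 3.07% of all 27457 promoters of the same length, and CAGCTG in 34.4% against 11.9%. TATAAA was found in 31.2% against 13.1%, GATAA in 31.2% against 23.2%, CATTCC in 18.8% against 11.8% and CArG in 3.12% against 1.5%. A MEF2 match can contain TATAAA, as it did in 2 member promoters. These matches describe letters in a window and no test was made of them.

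The members were chosen by their deposited intensities in the low-salt controls of both tissues and by their detection, and these values are given as a description. In low-salt control ventricles the mean log2 deposited intensity of the members ran from 14.70 for Myh6, the alpha myosin heavy chain of adult rat ventricle, to 9.67 for Asb11, a substrate receptor of a ubiquitin ligase. The brightest after Myh6 were muscle creatine kinase Ckm at 14.53, myoglobin Mb at 14.42, the Z-disc protein Myoz2 (calsarcin-1) at 14.39, the unnamed ILMN_1650171 at 14.37 and beta myosin heavy chain Myh7 at 14.25. Left ventricle exceeded kidney by 7.01 for Myh6 and by 4 or more for 19 members, which include Actn2 (alpha-actinin of the Z-disc), Tnni3 (cardiac troponin I), Eef1a2 (the muscle and neuron form of elongation factor 1A), Nppb (B-type natriuretic peptide) and Mybpc3 (cardiac myosin-binding protein C). In kidney 33 members were detected on 0 arrays and 12 on 1 to 6, so that the kidney value is mostly array background and the difference between tissues a lower limit. Just inside the threshold lay ILMN_1352553 with a difference of 2.14, Plin5 (a lipid droplet coat protein) with 2.17 and ILMN_1354352 with 2.23, and Sspn (sarcospan of the dystrophin complex) entered with detection on 6 kidney arrays. Just outside lay Rab3b, with a difference of 1.99 and detection on 23 left ventricular arrays, Cav3 with 2.31 and also 23 arrays, and Tnni3k with 3.54 but detection on 8 kidney arrays.

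**Figure D1:**
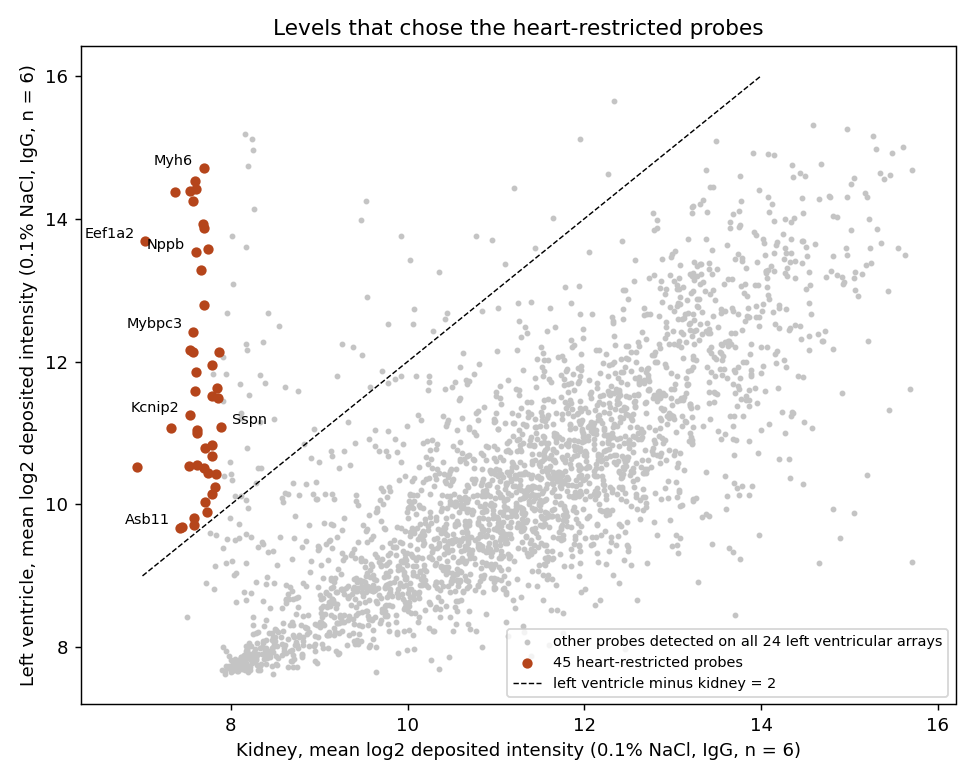
Mean log2 deposited intensity on the low-salt control arrays (n = 6 each), kidney on the x axis and left ventricle on the y axis, for the 2644 probes detected on all 24 left ventricular arrays. The 45 members form a column at kidney background, from 9.67 for Asb11 to 14.70 for Myh6, above the dashed line of a difference of 2.

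The label heart-restricted holds for this pair of tissues only. Of 7 cardiomyocyte markers 6 have a probe, all detected in left ventricle, and 3 of them (Myh6, Myl2 and Tnni3) are members. Tnnt2 was detected on all 24 kidney arrays, at a mean log2 intensity of 8.16 against 15.18 in left ventricle, and so fell outside the set. Of the kidney tubule markers, Slc34a1 and Aqp2 were detected on 0 left ventricular arrays and Umod on 1. The set also holds genes best known from skeletal muscle or nerve, such as Acta1, Eef1a2, Penk and Apobec2, and Myl2, the ventricular regulatory light chain, ranked only 1202 by brightness among the 22523 probes. Myh6 with Myh7, and Acta1 with the other actins, are close paralogs, and whether their probes tell them apart was not analysed here.

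The arrays differed in brightness by diet. The log2 of the 95th percentile of deposited intensity was 10.24 to 10.69 in the low-salt control group and 10.02 to 10.70 in the low-salt antibody group, but 7.97 to 9.73 and 7.44 to 8.54 in the corresponding high-salt groups. Detected probes numbered 7504 to 8248, 7475 to 8356, 4903 to 7033 and 3859 to 5509. High-salt control replicate 1 was the brightest and high-salt antibody replicate 2 the dimmest of the high-salt arrays. Chip and hybridization batch are not given in these sources, and diet and brightness cannot be told apart, and fewer cardiomyocytes and less RNA per cell cannot be told apart either. No pair of arrays was identical. All 24 left ventricles share their group and animal number with a kidney array, so both tissues appear to come from the same rats, while nothing in the labels pairs left ventricles of different groups.

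In deposited intensity nearly every member was lower on 8% NaCl, where the arrays as a whole were dimmer. On low salt the median over all 22523 probes had a group median of 169.1 with control IgG and 173.0 with antibody. On high salt it was 113.85 with control IgG and 110.2 with antibody. How many of all probes had a lower group median was not counted. The median over the 45 members had a group median of 2627 in low-salt controls, 2525 with low salt and antibody, 631 in high-salt controls and 370 with high salt and antibody. Under the antibody 45 of 45 members had a lower group median on high than on low salt, by 1.51-fold for Nppb to 21.0-fold for Tnni3 with a median of 6.48-fold, and under control IgG 44 of 45 did, the exception being Acta1. The members together held a median of 2.58% of an array's summed intensity in low-salt controls and 2.44%, 1.98% and 1.64% in the other groups in the same order. These folds include the array background and the brightness difference, whose part in them was not tested.

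The members did not dim alike. Myh6 had deposited intensities of 18871 to 37116 (median 25904) in low-salt controls, 19653 to 24053 (median 21044) with low salt and antibody, 1343 to 14194 (median 2353) in high-salt controls and 855 to 3254 (median 1461) with high salt and antibody. The diets did not overlap for Myh6, and its highest value on high salt came from the brightest high-salt array. Tnni3 had 10503 to 13876 (median 13108) with low salt and antibody and 372 to 1331 (median 623) with high salt and antibody. Under the antibody its diets lay furthest apart of all members by the ratio of medians. Nppb had 6467 to 12031 (median 10190) with low salt and antibody and 6485 to 9971 (median 6757) with high salt and antibody. Acta1 had 7336 to 25839 (median 14345) in high-salt controls against 7713 to 17269 (median 12885) in low-salt controls. Nppb overlapped between diets under the antibody. It also did so under control IgG, with 5674 to 14627 on high salt and 6969 to 17963 on low salt. Acta1 overlapped under control IgG, and so did Nrap, with 933 to 1791 on high salt and 1383 to 1536 on low salt. Whether pressure load, known to raise Nppb and Acta1, had a part in this was not tested. With the antibody Acta1 had 9617 to 23382 (median 10697) on low salt and 4978 to 7860 (median 5617) on high salt, and Nrap had 1131 to 1803 and 704 to 1061, in both cases without overlap.

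**Figure D2:**
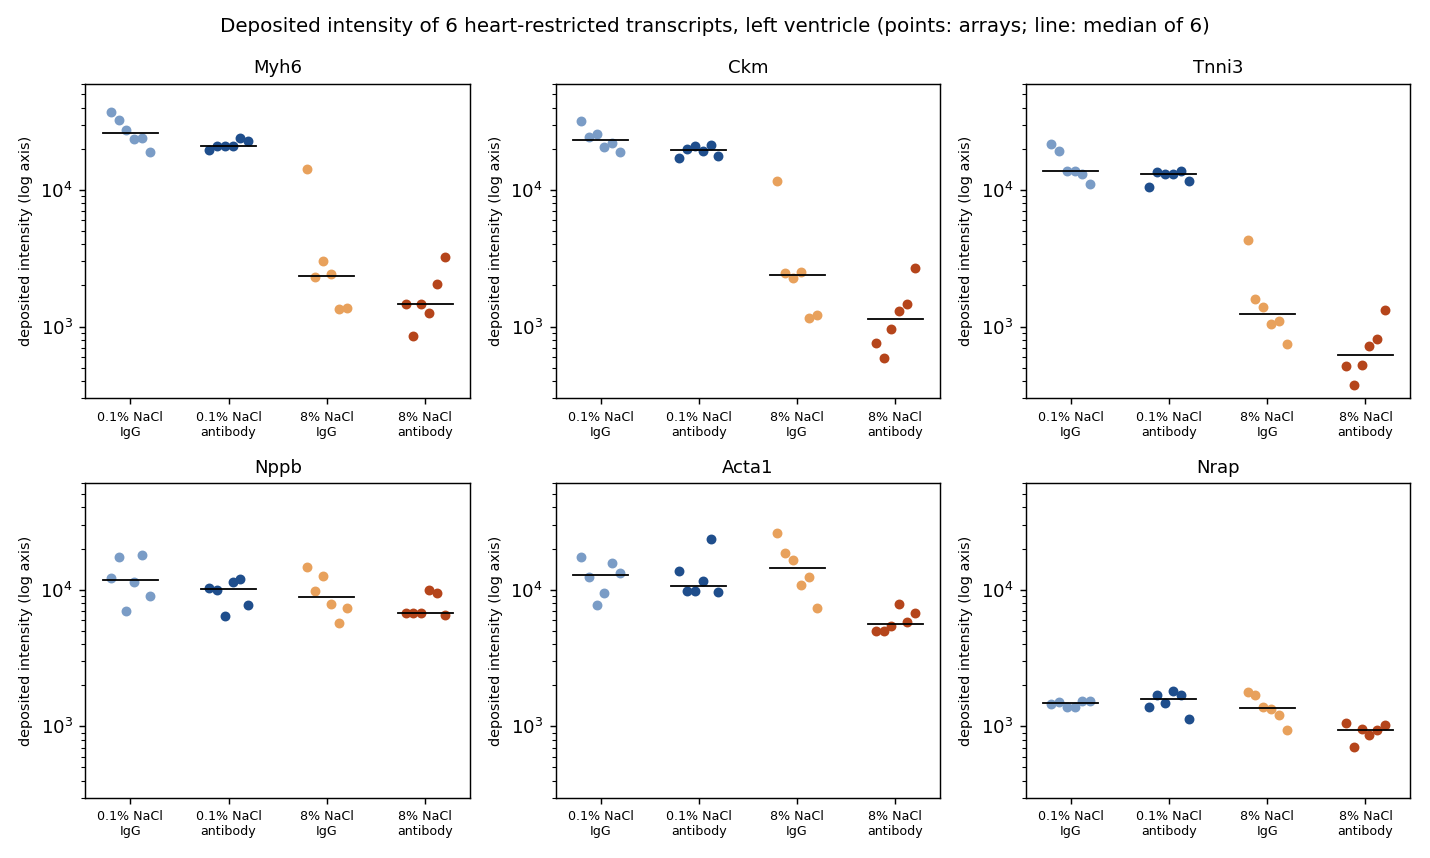
Deposited intensity (log axis) of 6 members on every left ventricular array, by diet and injection; points are arrays and the line is the median of 6. Myh6, Ckm and Tnni3 lie lower on 8% NaCl with no overlap between diets, while Nppb, Acta1 and Nrap overlap between diets under control IgG.

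Salt was tested under the antibody, because the rule had used the mean level of the low-salt control arrays. Its detection criterion did include the tested arrays, so a probe that lost detection on 1 or more high-salt arrays could not be a member. For the test the intensities were background-corrected, log2-transformed and quantile-normalized, which puts every array on the same distribution. Higher and lower are therefore relative to the other probes of the same arrays. On this scale, called the normalized level below, 15 members rose and 18 fell on 8% NaCl (limma, adjusted p below 0.05 over 8354 probes), and 12 did not pass. The share of 73.3% was near the background: 71.5% of all tested probes passed (27.2% higher, 44.4% lower), and 71.1% of the 2644 probes detected on all 24 left ventricular arrays (43.6% higher, 27.5% lower). The median change of the members was -0.10, against -0.31 over all tested probes and 0.20 over the probes detected on all 24 arrays, and their changes ran from -1.72 to 2.30. The groups did not overlap for 26 members, where 44.4% of all tested probes and 52.7% of those detected on all 24 arrays had groups that did not overlap. The direction rests on the scaling. With each array scaled to the median of all 22523 probes, 0 members rose and 43 fell. That scaling moved the median of all tested probes to -1.57. With arrays scaled to the median of the 2644 detected probes, 15 members rose and 21 fell, beside 5701 and 1177 of all tested probes. The median of all tested probes was then 0.99. With array brightness as a covariate 0 members and 0 probes in all passed. Brightness did not overlap between diets, so that fit could not separate brightness from diet and says nothing about the direction. Roles were assigned to the members after their values had been seen.

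**Figure D3:**
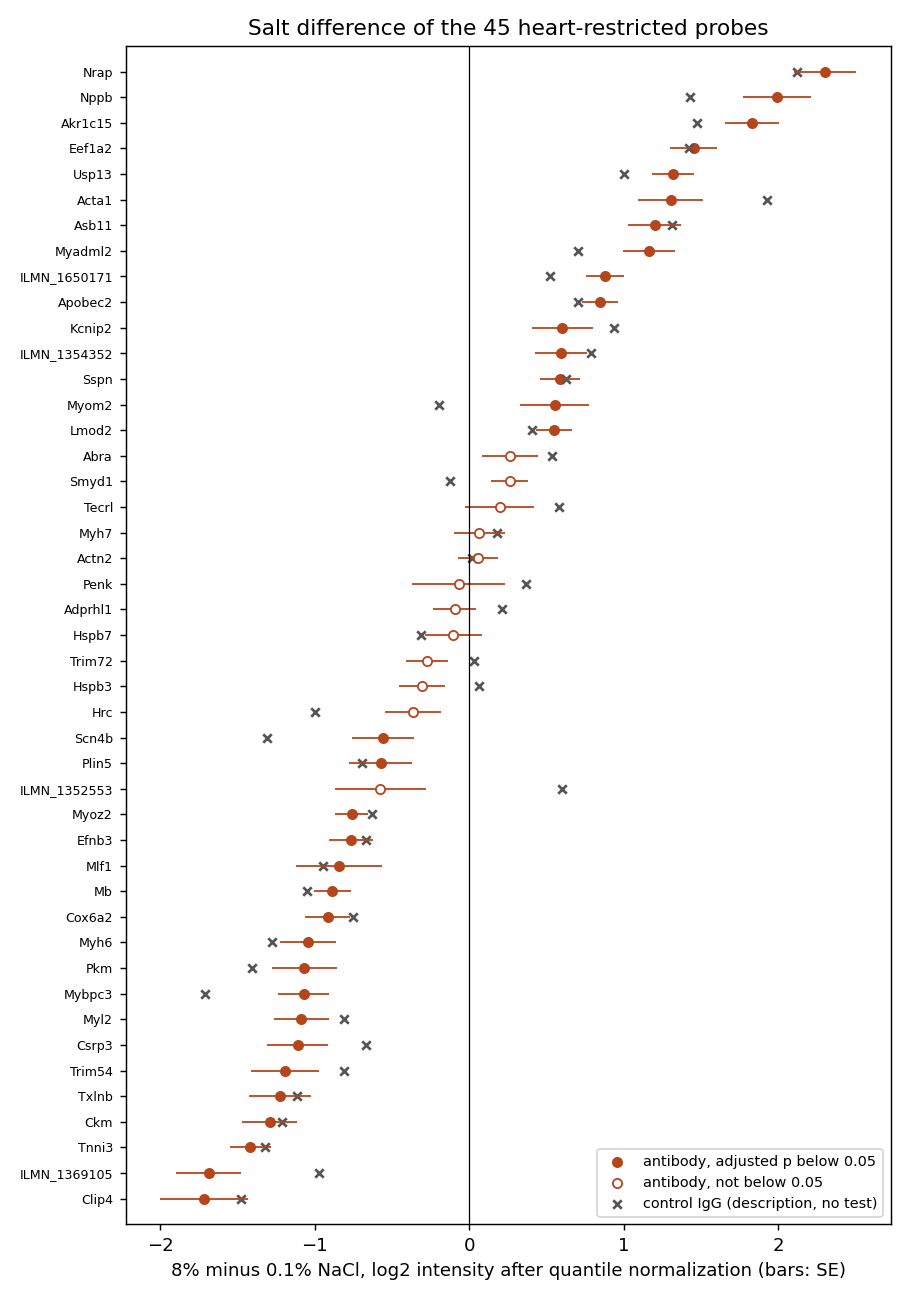
Difference in normalized level (log2) between 8% and 0.1% NaCl for the 45 members, under the antibody (circles with SE, filled where adjusted p was below 0.05) and under control IgG (crosses, no test). Under the antibody Nrap (2.30) and Nppb (1.99) head the 15 that rose and Clip4 (-1.72) ends the 18 that fell.

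Among the 5 thick filament and M-band genes 3 fell and 1 rose. Myh6 had normalized levels of 13.60 to 14.12 (median 13.78) on low salt with antibody and 12.50 to 12.96 (median 12.82) on high salt with antibody. The groups did not overlap, and the change was -1.05 ± 0.18 (SE, n = 6 per group, limma adjusted p = 2.03e-05). Myh7 lay at 12.96 to 13.72 (median 13.40) and 12.89 to 13.89 (median 13.51), with full overlap and a change of 0.07 ± 0.16 (adjusted p = 0.728). Mybpc3, whose product tethers and regulates myosin, lay at 11.23 to 11.49 (median 11.40) and 10.13 to 10.65 (median 10.21). Its groups were apart by -1.07 ± 0.17 (adjusted p = 4.16e-06), and Myl2 changed by -1.09 ± 0.18 (adjusted p = 8.20e-06). Myom2, the M-band protein M-protein, was the member of this group that rose, by 0.55 ± 0.22 (adjusted p = 0.0288), with overlapping groups.

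The 3 thin filament genes all passed, in both directions. Tnni3, the inhibitory troponin subunit of adult heart, had normalized levels of 12.84 to 13.22 (median 12.99) on low salt and 11.38 to 11.81 (median 11.57) on high salt, both with antibody. The drop was clear of all replicates, at -1.42 ± 0.13 (limma adjusted p = 3.52e-09). Acta1 lay at 12.44 to 13.72 (median 12.86) and 14.01 to 14.57 (median 14.19), so that each high-salt array was above each low-salt array, by 1.30 ± 0.21 on average (adjusted p = 7.91e-06). Lmod2, which lengthens thin filaments, rose by 0.55 ± 0.11 (adjusted p = 1.75e-04). With scaling to the median of all probes Acta1 was at -0.62 and Lmod2 at -2.11, so both rises turned.

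Of 4 genes of the Z-disc and its anchors, 2 fell and 1 rose. Nrap, a nebulin-related protein of myofibril assembly and cell junctions, had normalized levels of 9.62 to 10.01 (median 9.74) and 11.34 to 12.41 (median 12.21) on low and high salt with antibody. This was the highest rise in the set, 2.30 ± 0.20 (limma adjusted p = 1.62e-09), and it was -0.29 when arrays were scaled to the median of all probes. Csrp3, the muscle LIM protein, fell by 1.11 ± 0.20 on the log2 scale (adjusted p = 2.58e-05) and Myoz2, which binds calcineurin at the Z-disc, fell by 0.76 ± 0.11 (adjusted p = 9.03e-07). Actn2, the main crosslinker of actin there, was at 0.06 ± 0.13 (adjusted p = 0.702).

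All 5 genes of energy supply fell. Ckm, which regenerates ATP from phosphocreatine at the myofibril, had normalized levels of 13.57 to 13.77 (median 13.63) on low salt with antibody and 11.97 to 12.72 (median 12.39) on high salt with antibody. The groups did not overlap, and the change was -1.29 ± 0.18 (limma adjusted p = 8.79e-07). Mb, the oxygen store of muscle, changed by -0.89 ± 0.12 (adjusted p = 7.45e-07), and Cox6a2, the muscle form of a cytochrome oxidase subunit, by -0.92 ± 0.15 (adjusted p = 6.66e-06). Pkm, a pyruvate kinase gene of glycolysis, was at -1.07 ± 0.21 (adjusted p = 8.17e-05) and Plin5 at -0.57 ± 0.20 (adjusted p = 0.0138), both with overlapping groups. On the deposited within-array scores, which rescale each array by its own spread, Myh6, Mb and Myoz2 were higher on high salt instead, by 0.41, 0.40 and 0.87 score units.

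The 4 genes of calcium and electrical function were split. Kcnip2, an auxiliary subunit of the transient outward potassium channel, rose by 0.60 ± 0.20 (limma adjusted p = 0.00866), and Scn4b, a sodium channel beta subunit, fell by 0.56 ± 0.20 (adjusted p = 0.0163). Hrc, a calcium-binding protein of the sarcoplasmic reticulum, at -0.36 ± 0.18 (adjusted p = 0.0758), and Tecrl, an enzyme-like protein of the endoplasmic reticulum linked to arrhythmia in humans, at 0.20 ± 0.22 (adjusted p = 0.432), did not pass.

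Of the 3 genes that encode secreted or surface signals, Nppb rose most. Its normalized level was 11.94 to 12.81 (median 12.63) on low salt and 13.87 to 14.88 (median 14.62) on high salt, both with antibody. The groups were more than 1 log2 unit apart at their nearest arrays, and the change was 1.99 ± 0.22 (limma adjusted p = 3.22e-08). With scaling to the median of all probes it was 0.13, the only member above 0 under that scaling. Efnb3, an ephrin of the cell surface, fell by 0.77 ± 0.14 (adjusted p = 3.99e-05), and Penk, the precursor of enkephalins, ranged from 10.08 to 12.13 on high salt and was at -0.07 ± 0.30 (adjusted p = 0.850).

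Among 6 genes of protein quality and ubiquitin, Usp13, a deubiquitinase, rose by 1.32 ± 0.14 (limma adjusted p = 1.77e-08) and Asb11 by 1.20 ± 0.17 (adjusted p = 1.28e-06), while Trim54 (MuRF3, a ubiquitin ligase of sarcomere and microtubules) fell by 1.19 ± 0.22 (adjusted p = 4.06e-05). The small heat shock proteins Hspb7 and Hspb3 and the membrane repair protein Trim72 did not pass, at -0.10, -0.31 and -0.27. The remaining 11 named members gave 5 rises, 3 falls and 3 that did not pass. Akr1c15, an aldo-keto reductase, had normalized levels of 9.70 to 9.95 (median 9.77) on low salt and 10.99 to 12.15 (median 11.63) on high salt with antibody, and rose by 1.83 ± 0.17 (adjusted p = 4.35e-09) without overlap. Eef1a2 rose by 1.45 ± 0.15 (adjusted p = 1.80e-08), Myadml2 by 1.16 ± 0.17 (adjusted p = 1.81e-06), Apobec2, a muscle member of the cytidine deaminase family, by 0.85 ± 0.11 (adjusted p = 5.92e-07) and Sspn by 0.59 ± 0.13 (adjusted p = 3.30e-04). Clip4, which carries CAP-Gly domains, had the lowest change, -1.72 ± 0.28 (adjusted p = 1.06e-05), followed by Txlnb, a muscle taxilin, at -1.23 ± 0.20 (adjusted p = 9.33e-06) and Mlf1 at -0.84 ± 0.28 (adjusted p = 0.00900). Smyd1, a muscle histone methyltransferase, Abra, an actin-binding protein of muscle, and Adprhl1 did not pass, at 0.26, 0.26 and -0.09. Of the 4 unnamed probes ILMN_1650171 rose by 0.88, ILMN_1354352 rose by 0.60, ILMN_1369105 fell by 1.69 and ILMN_1352553 was at -0.58 without passing.

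The same diet difference under control IgG shares no arrays with the one under the antibody, but its low-salt arrays chose the set, so it is given as a description. There 16 members were higher and 19 lower by the same threshold, beside 59.7% of all tested probes (25.2% higher, 34.5% lower) and 68% of those detected on all 24 left ventricular arrays (44.4% higher, 23.6% lower) past it. The members' median was 0.02, against -0.13 over all tested probes. Set side by side, the differences under control IgG and antibody were 2.12 and 2.30 for Nrap, 1.43 and 1.99 for Nppb, 1.93 and 1.30 for Acta1, and 1.42 and 1.45 for Eef1a2. On the lower side they were -1.32 and -1.42 for Tnni3, -1.27 and -1.05 for Myh6, -1.21 and -1.29 for Ckm, and -1.71 and -1.07 for Mybpc3. The sign was the same for 38 of 45 members, with 14 past the threshold upward in both and 18 downward in both, and Pearson's r across the members was 0.92. Over all 8354 tested probes the sign was the same for 7314 (87.6%, against 84.4% of the members), 1742 passed upward in both and 2623 downward in both, and r was 0.89. Over the 2644 probes detected on all 24 left ventricular arrays the sign was the same for 2375 (89.8%). Of these 1032 passed upward in both and 561 downward in both, and r was 0.93. In both differences the high-salt arrays were the dimmer ones. The 7 with opposite signs were Adprhl1, Smyd1, Penk, Myom2, Hspb3, Trim72 and ILMN_1352553, of which Myom2 alone passed under the antibody. Replicates of high-salt groups were more scattered: the median SD of the members was 0.20 and 0.16 in the low-salt control and antibody groups and 0.30 in each high-salt group. Over all tested probes it was 0.20 and 0.18 on low salt and 0.41 and 0.46 on high salt. Over those detected on all 24 left ventricular arrays it was 0.18 and 0.14, then 0.29 and 0.32.

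Few members passed when the antibody on 8% NaCl was tested against control IgG on the same diet. The detection criterion of the rule included these arrays too. The normalized level rose for 4 and fell for 3 (limma, adjusted p below 0.05), which is 15.6%, beside 18.8% of all tested probes (7.12% higher, 11.6% lower) and 14.8% of those detected on all 24 left ventricular arrays (9.83% higher, 4.95% lower). The median change was -0.01, against -0.09 over all tested probes, and 13 members had an unadjusted p below 0.05, as did 2830 of the 8354 tested probes. The split moved with the scaling. Scaling to the median of all probes gave 0 higher and 36 lower, beside 1 and 3439 of the tested probes, whose median was -0.40. Scaling to the detected probes gave 12 and 3, beside 5038 and 232 with a median of 0.57. Scaling to the members gave 6 and 3, beside 3944 and 208. A fit of the high-salt groups alone, without the spread of the low-salt groups, called 0 of the members. Of the 8354 tested probes it called 3 higher and 35 lower, so most calls, members or not, were absent without the low-salt arrays. The covariate for brightness called 1 member, beside 48 probes higher and 94 lower. The antibody arrays were also the dimmer of the groups compared.

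The members that rose were Scn4b, Hrc, Mybpc3 and Myom2. Scn4b had normalized levels of 6.91 to 8.17 (median 7.81) with control IgG and 8.02 to 8.99 (median 8.36) with antibody. The groups overlapped, and the change was 0.75 ± 0.20 (SE, limma adjusted p = 0.0125). Scn4b was dim on high salt, with deposited intensities of 142.9 to 384.2 with control IgG and 134.1 to 205.2 with antibody. The median over all probes was 104.2 to 113.9 on the high-salt antibody arrays. Hrc lay at 8.94 to 10.35 (median 9.55) and 9.96 to 10.75 (median 10.23), a change of 0.65 ± 0.18 (adjusted p = 0.0149). The Hrc groups overlapped too. Mybpc3 lay at 9.32 to 10.65 (median 9.78) and 10.13 to 10.65 (median 10.21), a change of 0.48 ± 0.17 (adjusted p = 0.0441). Myom2 lay at 10.01 to 11.42 (median 10.40) and 10.60 to 11.58 (median 11.15), a change of 0.63 ± 0.22 (adjusted p = 0.0482). Mybpc3 and Myom2 were near the threshold and in the 24 leave-one-array-out fits each lost its call 19 times. All 4 were below 0 with scaling to the median of all probes, at -0.22 for Scn4b, -0.35 for Hrc, -0.53 for Mybpc3 and -0.36 for Myom2.

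The members that fell were Hspb3, a small heat shock protein of muscle, and the unnamed probes ILMN_1369105 and ILMN_1352553. Hspb3 lay at 9.58 to 10.28 (median 9.96) with control IgG and 8.86 to 9.82 (median 9.49) with antibody, a change of -0.53 ± 0.15 (limma adjusted p = 0.0152). ILMN_1369105 changed by -0.69 ± 0.21 (adjusted p = 0.0236) and ILMN_1352553 by -1.07 ± 0.29 (adjusted p = 0.0144), and in all 3 the groups overlapped. Both unnamed probes were dim with high salt and antibody, at deposited intensities of 121.1 to 175.9 and 130.2 to 185.2. The median over all probes of those arrays was 104.2 to 113.9. A stricter filter, detection p below 0.01 on all 24 left ventricular arrays, tested 37 members and called 3 higher and 1 lower. The only member whose high-salt groups did not overlap was ILMN_1650171, higher by 0.29 ± 0.12 without passing (adjusted p = 0.0884), where 1.39% of all tested probes and 1.13% of those detected on all 24 arrays had groups that did not overlap. Nppb, Acta1, Nrap, Tnni3 and Myh6, described above for salt, did not pass: Nppb was at 0.40 ± 0.22 (adjusted p = 0.196), Acta1 at -0.41 ± 0.21 (adjusted p = 0.168), Nrap at 0.38 ± 0.20 (adjusted p = 0.175), Tnni3 at -0.16 ± 0.13 (adjusted p = 0.396) and Myh6 at 0.10 ± 0.18 (adjusted p = 0.717).

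**Figure D4:**
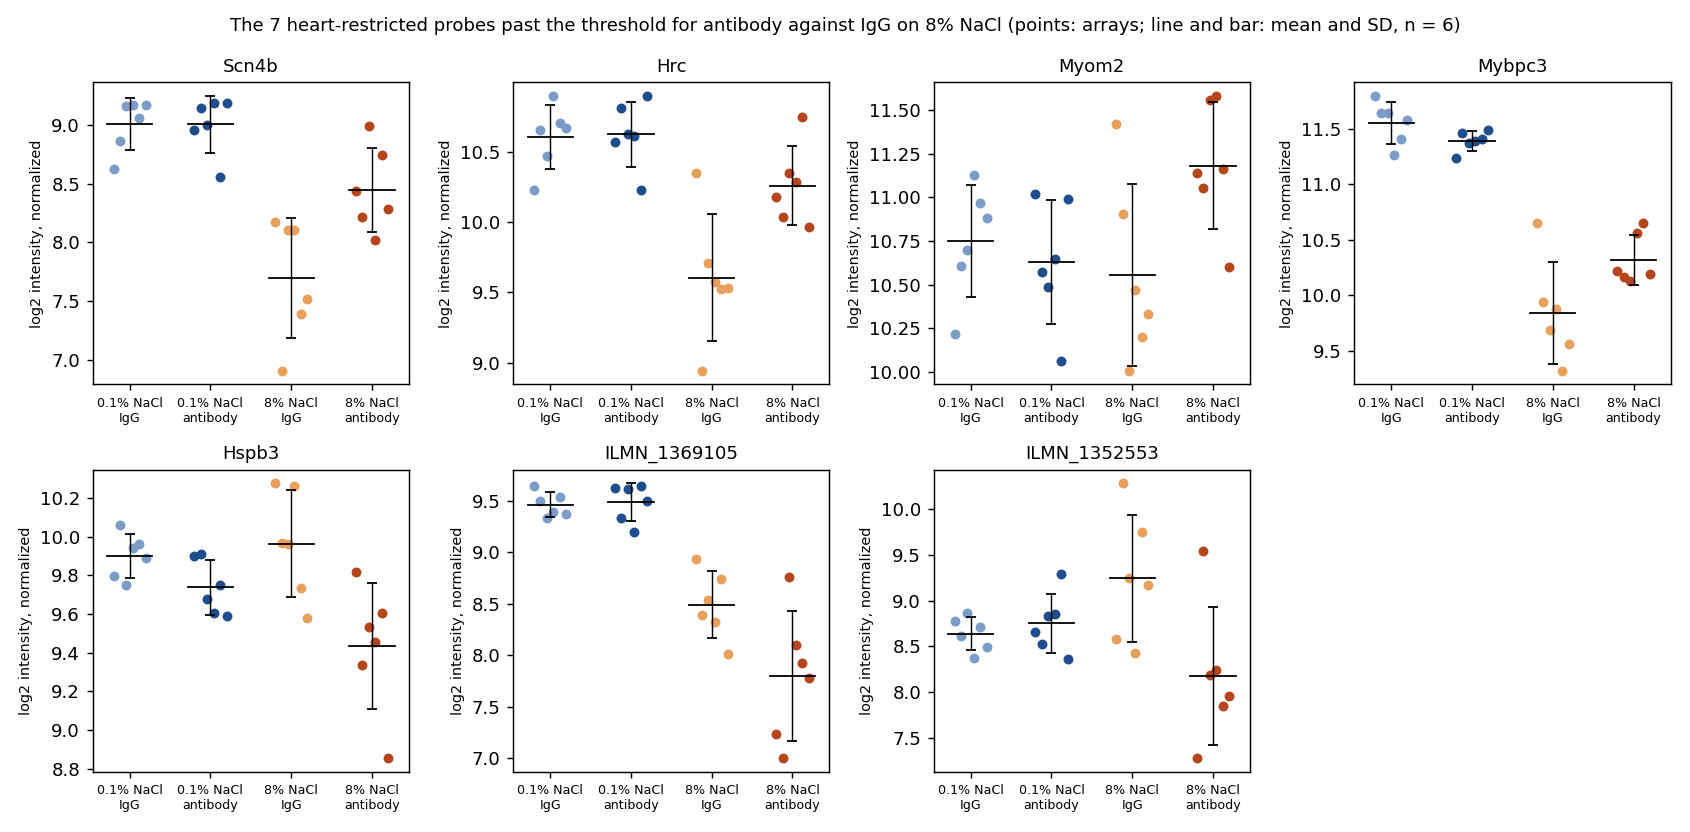
Normalized level (log2) of the 7 members past the threshold for antibody against control IgG on 8% NaCl, on every left ventricular array; line and bar are mean and SD, n = 6. Scn4b, Hrc, Myom2 and Mybpc3 are higher and Hspb3, ILMN_1369105 and ILMN_1352553 lower with antibody, each with overlapping high-salt groups.

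On 0.1% NaCl the antibody differences are a description for the same reason as above. They ran from -0.19 for Plin5 to 0.34 for Abra with a median of 0.01, and limma called 0 of the members and 0 of the 8354 probes, where 0 members and 72 probes had an unadjusted p below 0.05. The change of the antibody difference with diet rests on the same low-salt control arrays that chose the set, so it too is a description. The high-salt antibody difference minus the low-salt one was 0.75 for Scn4b, 0.75 for Myom2, 0.64 for Mybpc3 and 0.64 for Hrc. It was -0.71 for ILMN_1369105 and -1.18 for ILMN_1352553. For this change limma called 0 of the members (smallest adjusted p 0.134) and 150 of the 8354 probes.

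Related genes outside the set, taken from lists of heart genes, are given for salt under the antibody. The lists of ion channels and transcription factors hold 0 members, and the other lists hold some. As background, 44.4% of all tested probes fell and 27.2% rose. Of those detected on all 24 left ventricular arrays 27.5% fell and 43.6% rose. With array brightness as a covariate 0 of the 8354 tested probes passed in either direction. Brightness did not overlap between diets, so that fit cannot judge the salt changes. Of the 11 contractile genes listed 10 had a probe and were tested, 8 fell and 0 rose. Beyond the members these were the ventricular light chain Myl3 at -2.85 ± 0.24 (limma adjusted p = 1.47e-09), Tnnt2 at -1.69 ± 0.13 (adjusted p = 6.85e-10), Tnnc1 at -1.03 ± 0.19 (adjusted p = 3.41e-05) and Tpm1 at -0.41 ± 0.12 (adjusted p = 0.00518), while cardiac actin Actc1 was at -0.13 ± 0.22 (adjusted p = 0.611). The median of the list was -1.06, and Tpm1 was at 0.05 and not past the threshold when arrays were scaled to the detected probes. Of the 4 load markers Nppb and Acta1 rose as above and Nppa, the atrial natriuretic peptide, rose by 1.22 ± 0.34 (adjusted p = 0.00242), while Ankrd1 fell by 0.35 ± 0.13 (adjusted p = 0.0220). Nppa was at -1.24 with scaling to all probes and Ankrd1 at 0.28, not past the threshold, with scaling to the detected probes.

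Of the 6 calcium handling genes tested 1 rose and 2 fell: the L-type channel gene Cacna1c by 1.05, and the ryanodine receptor Ryr2 at -1.74 and the calcium pump Atp2a2 at -0.54. Ryr2 was detected on 18 of the 24 left ventricular arrays, on 3 of 6 in each high-salt group. Atp2a2 was the highest value of the normalized distribution on all 12 low-salt arrays, so its difference is capped by the normalization. Among the members the top value was reached by Acta1 on 3 high-salt control arrays and by Nppb on 2 high-salt antibody arrays, which caps their differences too. With scaling to the detected probes Atp2a2 was at 0.25 and Ryr2 at -0.37, neither past the threshold, and with scaling to all probes Cacna1c was at -1.38. Of the 6 fuel genes tested 4 fell (Ckm, Mb, Cox6a2 and Pdk4) and 2 rose, Fabp3 by 0.44 and Cpt1b by 0.71, both of which fatty acid genes were below 0 with scaling to all probes, at -1.46 and -1.95. The transcription factor Gata4, detected on 17 of the 24 arrays and on 2 of the 6 with high salt and antibody, fell by 0.85, yet passed as higher at 0.45 with scaling to the detected probes. The transcription factor Nkx2-5 passed as lower, but was detected on 0 of the 6 arrays with high salt and antibody, where its level has only a bound, and with scaling to the detected probes it did not pass. The ion channel genes Kcnj3, detected on 19 of the 24 arrays, and Kcnd2 were at 2.90 and 0.71 and Gja1, the main gap junction protein, at -0.52, all past the threshold. Kcnj3 and Kcnd2 were also detected on 23 and 24 kidney arrays. Kcnj3 had a low mean normalized level, 5.70, on low salt with antibody. With scaling to all probes Kcnd2 was at -1.34. On high salt Cacna1c was higher with antibody by 0.45, Kcnj3 by 1.18 and Kcnd2 by 0.86. With scaling to all probes they were at -0.45, 0.19 and -0.04. With array brightness as a covariate they were at 0.29, 0.01 and 0.45, none past the threshold. No other gene of these lists outside the members passed.

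Markers of other cells moved as follows beside these changes. Summed unlogged normalized levels of the 6 cardiomyocyte markers were 42301 to 49946 on low salt with antibody and 15973 to 20370 on high salt with antibody. The 5 fibroblast markers gave 8896 to 13100 and 5977 to 9992, with Col1a2 and Dcn lower and 0 higher. Of 3 endothelial markers the only one with a probe, Cdh5, was detected on 0 left ventricular arrays, Cd163 of the macrophage markers on 4, and the smooth muscle marker Tagln, detected on 21, changed by -0.99 (limma adjusted p = 0.0115). The erythroid markers Hbb and Hba-a1 did not pass (0.21 and 0.16) and summed to 13524 to 18713 and 11847 to 24597. The part of cell composition in the members' changes was not tested.

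**Figure D5:**
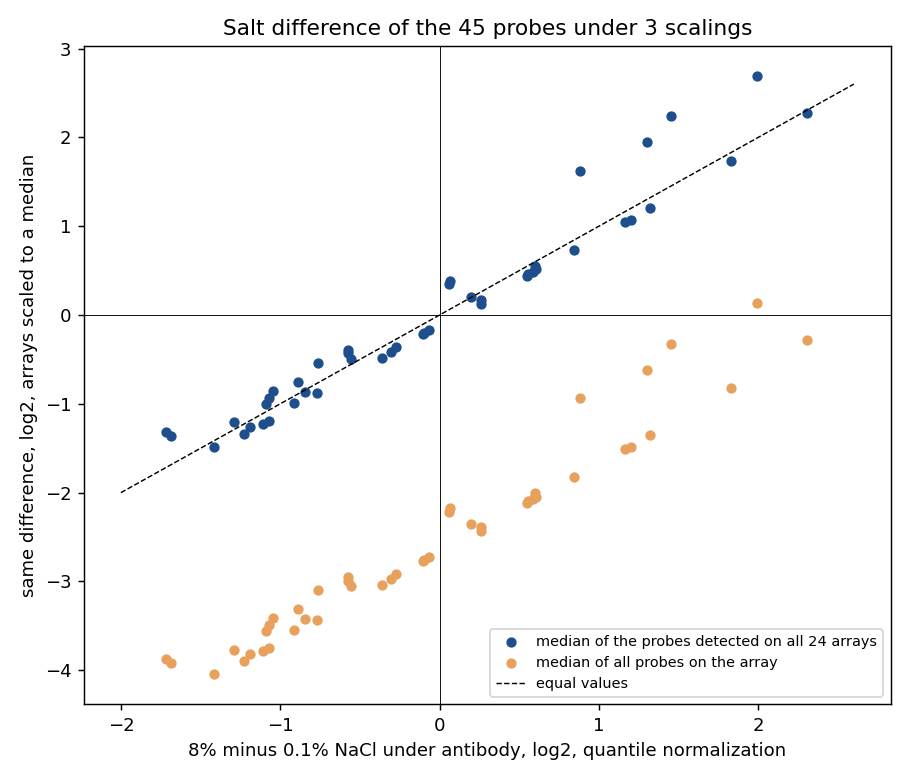
Salt difference under the antibody (log2) of the 45 members, quantile-normalized on the x axis and after scaling each array to a median on the y axis. Scaling to the 2644 detected probes gives 15 members past the threshold as higher and 21 as lower, beside 5701 and 1177 of the tested probes. Of these members, 14 were also higher and 18 also lower after quantile normalization. Scaling to all 22523 probes places all members but Nppb (0.13) below 0, where the median of all tested probes was -1.57.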

How the data were processed

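Total RNA of 24 left ventricles and 24 kidneys was labelled and hybridised to rat Illumina bead arrays. Per the submitters' processing notes the arrays were processed with GenomeStudio 2011.1, and its background setting is not given in the sources used here. The authors deposited linear intensities with a detection p-value per probe and array, per the file headers, and a table of scores, made by the authors from the same intensities. Recomputing each as a z-score over the array's own log10 intensities gave the deposited scores (largest difference 0.00500 in left ventricle, 0.00649 in kidney). The score table equals the series value table in 1081104 of 1081104 values. The deposited intensities carry 1 decimal in left ventricle and none in kidney. Rows were named through the platform annotation, which gives a symbol for 13793 probes, several for 0 and none for 8730. Symbols of the 41 named members were current in the RefSeq gene table.

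The set was found on the log2 of the deposited intensities, with the upper limit of 300 probes not reached. The members, gene lists and tests were chosen with earlier results of these data known. Here neqc corrected the background of the 24 left ventricular arrays and quantile-normalized them (limma 3.58.1, R 4.3.3, offset 16, negative controls inferred from the detection p-values), and the 8354 probes detected (p below 0.05) in 6 or more of these arrays were kept. lmFit with 4 group means and eBayes gave changes, SEs and p-values, adjusted by Benjamini-Hochberg over all 8354. The limma fit was tested on simulated normalized values without a brightness difference between arrays. That test therefore does not cover the normalization or the scaling. The number of arrays, 6 per group, limits the precision, and p-values measure the spread between these samples. Where a gene had several probes, the one with the highest mean was used for the lists. Named genes were the members past the threshold with the largest changes, up to 12 in each direction, and the listed genes and markers. Remaining members are named to account for the set, after their values were seen.

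Same-numbered replicates did not deviate together: r was -0.15 to 0.01 between the low- and high-salt antibody groups and -0.41 to 0.01 between the high-salt groups, with 0 of 6 above 0.1, so replicate numbers were not taken as pairs. Alternatives changed the scaling, background correction, filter, model and samples.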

Additional observations from a re-analysis of the deposited data

Results flagged for a closer look

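In 11 of 180 sets of 6 replicates of a member, 1 array lay far from the other 5 by Dixon's test at the 95% level, where chance gives about 1 in 20, and 6 of the 11 were high-salt control replicate 1, the brightest high-salt array. On that array the normalized level (log2) was 13.72 for Myh6 (others 12.17 to 12.70), 13.08 for Mb (others 12.41 to 12.56), 12.27 for Cox6a2 (others 11.51 to 11.72) and 8.545 for Pkm (others 7.58 to 7.81). It was 10.66 for Akr1c15 (others 11.22 to 11.43) and 10.76 for Nrap (others 11.64 to 11.97). The median deposited intensity over the 45 members was 1741 on it and 389.7 to 872.4 on the others, and this was 1 of 8 measures of arrays that held such a value. Myl2 was at 7.888 on high-salt control replicate 6 (others 8.63 to 9.01).

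Trim54 was at 8.935 on high-salt antibody replicate 2, the dimmest array (others 10.34 to 10.77). In the low-salt antibody group Nppb was at 11.94 on replicate 3 (others 12.50 to 12.81), ILMN_1354352 at 8.465 on the same array (others 8.63 to 8.70) and Scn4b at 8.555 on replicate 5 (others 8.96 to 9.19). The part of brightness in these values was not tested.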

How the results depend on the processing

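For salt under the antibody, 33 members called (15 higher, 18 lower) became 31 to 36 when single arrays were left out (14 to 16 higher, 17 to 20 lower). With array brightness as a covariate 0 were called, 0 in either direction. Brightness did not overlap between diets, so that fit could not separate brightness from diet. With scaling to the median of all probes 0 were higher and 43 lower. The median change of -0.10 was -2.77 with that scaling, 0.0658 with detection p below 0.01 on all arrays (37 members), 0.20 with the covariate, -0.23 with scaling to the members, and -0.284 to -0.0449 without single arrays. Scaling to all probes reversed ILMN_1650171 (-0.93), Eef1a2 (-0.32), Acta1 (-0.62), Myom2 (-2.09), Kcnip2 (-2.04), Sspn (-2.07), Usp13 (-1.35), Lmod2 (-2.11), Myadml2 (-1.51), Akr1c15 (-0.83), Apobec2 (-1.82), Nrap (-0.29), ILMN_1354352 (-2.01) and Asb11 (-1.49). Under the covariate the sign differed for Myh6 (0.22), Txlnb (0.20), Mybpc3 (0.11), Sspn (-0.16), Mlf1 (0.59), Myadml2 (-0.20) and Clip4 (0.85). None of them was called, and as that fit could not separate brightness from diet, these signs are not read as reversals. The authors' scores reversed Myh6 (0.41), Mb (0.40), Myoz2 (0.87) and ILMN_1354352 (-0.17, in score units). The cause was not tested.

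For the antibody on high salt, the 7 calls (4 higher, 3 lower) became 36 with scaling to all probes (0 higher, 36 lower), 20 with the authors' scores (11 and 9), 15 with scaling to the detected probes (12 and 3), 11 without background correction and 11 with a variance trend (8 higher in each), and 4 with detection p below 0.01 (3 and 1) or among the 33 members detected on no kidney array (2 higher). They became 2 with array weights (1 and 1), 1 with the covariate (1 and 0) and 0 in the fit of the high-salt groups alone (0 and 0). Over the 8354 tested probes array weights gave 219 higher and 452 lower, and the covariate 48 and 94. The fit of the high-salt groups alone gave 3 and 35, and the authors' scores 658 and 1372. Higher calls among the members were 2 with normalization over all 48 arrays and 2 without a filter. Their lower calls were 1 without high-salt control replicate 1 and high-salt antibody replicate 2. Without single arrays the calls were 4 to 11 (2 to 8 higher, 2 to 3 lower, with 8 higher without high-salt antibody replicate 6). The median of -0.01 was -0.95 with scaling to all probes and -0.07 to 0.02 without single arrays. Scaling to all probes, which put the median of all tested probes at -0.40, reversed Mybpc3 (-0.53), Myom2 (-0.36), Hrc (-0.35) and Scn4b (-0.22). ILMN_1369105 lost its call in 3 of the 24 fits without 1 array.

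With the replicate number as a block, which does not pair these samples, 33 members were called for salt (15 higher, 18 lower) and 5 for the antibody on high salt (2 higher, 3 lower). The described median for salt under control IgG (0.02) was -1.81 with scaling to all probes and -0.07 to 0.05 without single arrays, and that for the antibody on low salt (0.01) was -0.04 to 0.02. The authors' scores give no median on the same scale. Other differences from kidney gave sets of 47 (at least 1.5, 45 shared), 32 (at least 3) and 33 (detected on no kidney array). The scalings to detected probes and to members and the fit without 2 arrays were added after seeing the data.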
